A study of Mus musculus with 13 samples.

Results

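The genes described here were selected on their measured levels: protein-coding genes whose CPM (a gene's read count divided by the library's total count and multiplied by 1000000) were higher in every mouse given lipopolysaccharide (LPS) and CPD-4645 than in every other mouse. A gene was included when its lowest CPM over the 4 LPS-CPD-4645 mice was at least 1 and at least 1.3 times its highest CPM over the other 9 mice. The rule was met by 112 of 21620 protein-coding genes listed, which is 0.853% of the 13129 coding genes that reached 1 CPM in all 4 LPS-CPD-4645 mice. The whole table lists 47643 genes. Because both contrasts with the LPS-CPD-4645 group chose the genes, the values in those contrasts are given as a description without a test. The rule did not compare LPS-vehicle with sham-vehicle mice, and that contrast was tested. It did set a limit on the highest value over these 9 mice together, so the values behind this contrast were not untouched by the choice.

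Poly(A) RNA was sequenced from vessel-enriched fractions of frozen brains of male CD1 mice aged 8 to 10 weeks, with 1 library per mouse. The 4 sham-vehicle mice received no LPS, and the series' design names phosphate-buffered saline in its place. The 5 LPS-vehicle mice and the 4 LPS-CPD-4645 mice were injected intraperitoneally with 3 mg/kg LPS of Salmonella enterica typhimurium at 0, 6 and 24 hours, and the latter group was also given CPD-4645 at 10 mg/kg subcutaneously, per the labels 30 minutes after each LPS dose. Another passage of the study's text gives a longer delay. All mice were killed 28 hours after the first injection. No group received CPD-4645 without LPS, so the agent was seen here only on top of the LPS challenge. The brains were not perfused, and blood cells in the vessels belong to the material.

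CPD-4645 inhibits monoacylglycerol lipase, the serine hydrolase that cleaves the endocannabinoid 2-arachidonoylglycerol into arachidonic acid and glycerol and that carries out the last step of triglyceride breakdown. Its substrate activates cannabinoid receptors, and its product feeds prostaglandin synthesis in the brain. The study reports that CPD-4645 also partly inhibited the serine hydrolases ABHD6 and FAAH in the brain. LPS activates Toll-like receptor signalling, which induces cytokines, raises circulating glucocorticoids and loosens the blood-brain barrier.

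Total counts ran from 7813559 to 55133373 per library. The lowest was that of LPS-vehicle mouse 3, followed by 12548404 in LPS-CPD-4645 mouse 1. Mitochondrial transcripts took 6.47 to 12.7% of the counts in sham-vehicle, 4.84 to 7.05% in LPS-vehicle and 3.97 to 8.17% in LPS-CPD-4645 mice. Endothelial markers were present in every library, at 435 to 1240.2 CPM summed over 14 genes, but 12 neuronal markers summed to 9764 to 11827 CPM, so the fractions also held much RNA of other brain cells. CPM from library totals moved the median of all tested genes by 0.10 (log2) in LPS-vehicle over sham-vehicle, by -0.10 in LPS-CPD-4645 over LPS-vehicle and by 0.01 in LPS-CPD-4645 over sham-vehicle. The fitted log2 fold changes below were scaled by TMM and do not carry this shift.

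The set spanned a wide range of levels. The mean CPM in LPS-CPD-4645 mice ran from 1.35 for Zp2, an egg coat protein named after its values were seen, to 581 for Cnbp, a nucleic acid-binding zinc finger protein, with a median of 19.4 against 31.2 over the 13129 coding genes above the floor. Means under 5 CPM were found for 27 genes, 5 to 20 CPM for 30, 20 to 100 CPM for 36 and 100 CPM or more for 19. The mean was 2.11-fold that of LPS-vehicle mice at the median gene (range 1.45 to 59.5) and 2.93-fold that of sham-vehicle mice (range 1.45 to 19.5). The ratio of the lowest LPS-CPD-4645 mouse to the highest other mouse had a median of 1.45, was at least 1.5 for 45 genes, at least 2 for 22 and at least 3 for 12. In 88 genes the highest of the other 9 mice was an LPS-vehicle mouse (mouse 2 in 30 of them), and in 24 it was a sham-vehicle mouse. Of these 9 mice 5 were LPS-vehicle mice, and the same count was not made over all genes. Within the LPS-CPD-4645 group, mouse 3 was highest in 43 genes, and mice 1 and 4 were each lowest in 36. The coefficient of variation between mice had a median of 12.8% in LPS-CPD-4645 and of 19.4% in each of the other groups.

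**Figure D1:**
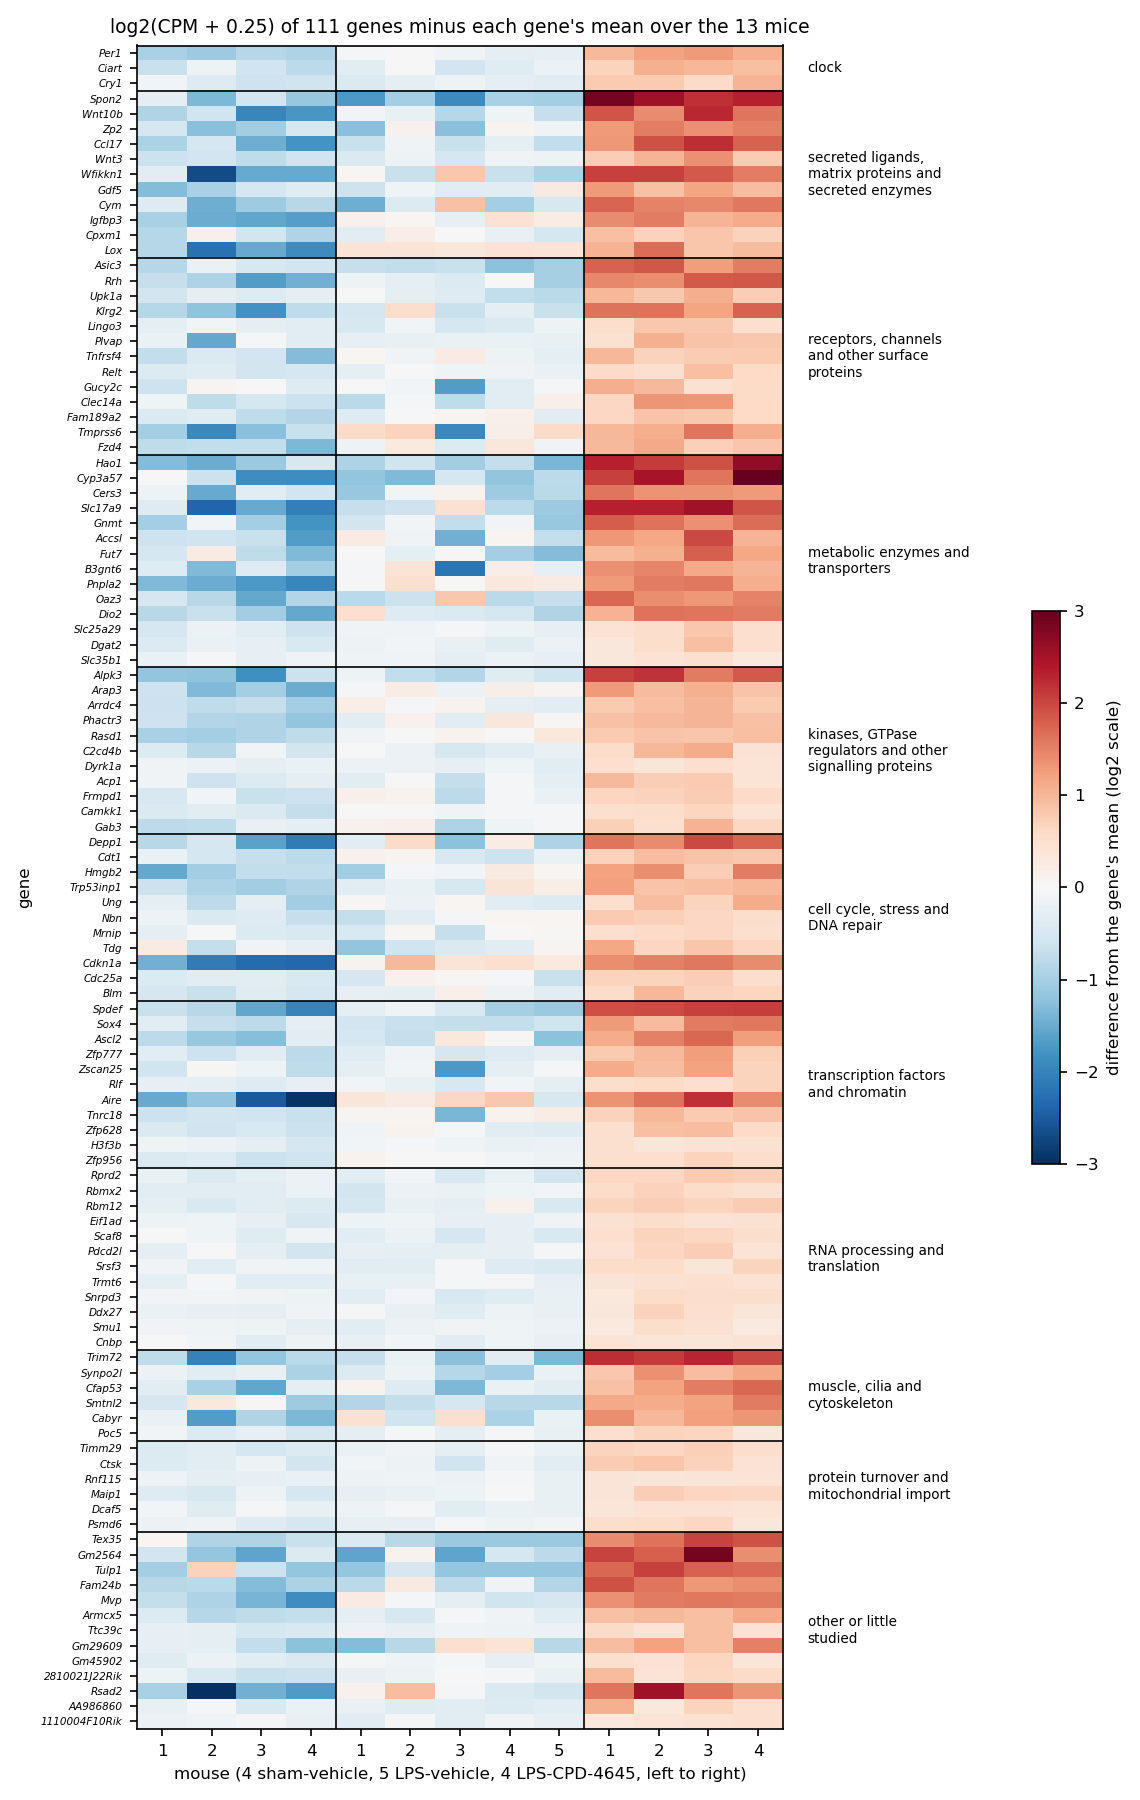
Each row is 1 of 111 genes of the set, grouped by role, each column is 1 of the 13 mice, and the colour is log2(CPM + 0.25) minus the gene's mean over the mice. The rule fixes the red block of the 4 LPS-CPD-4645 columns, and the contrast is pale for the RNA processing genes (ratios of 1.3 to 1.62) and strong for Spon2 and Hao1 (ratios of 7.53 and 7.38).

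At the border of the rule, the members with the lowest ratios were Cnbp, Slc35b1, 1110004F10Rik, Fzd4 and Gab3, at 1.3 to 1.307. Just outside it lay Polr3e (1.297), Mta3 (1.295), Slc25a13 (1.293), Mtmr2 (1.292) and Asb5 (1.291), the 5 coding genes over the floor with the highest ratios below the limit. Mtmr2 had a mean of 64.4 CPM against 44.2 in LPS-vehicle and 44.1 in sham-vehicle mice, values of the same kind as those of the members above. With each of the 13 mice left out in turn, the rule gave 112 to 173 genes, with 173 without LPS-CPD-4645 mouse 4. With both of the shallowest libraries left out it also gave 173, which include all 112.

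The 12 genes with the largest ratios were low in the other 9 mice, with no value above 2.96 CPM, and many are best known from tissues other than brain. Spon2 (ENSMUSG00000037379, chr5:33198184-33218455 of GRCm38, minus strand) encodes spondin 2, a secreted matrix protein of innate immunity. Its CPM were 0.534, 0.122, 0.385 and 0.179 in sham-vehicle mice and 0.0371, 0.218, 0, 0.233 and 0.214 in LPS-vehicle mice. They were 6.61, 5.28, 4.02 and 4.49 in LPS-CPD-4645 mice, so that the lowest of these was 7.53 times the highest other value. Hao1 (ENSMUSG00000027261, chr2:134497361-134554368, minus strand), the hydroxyacid oxidase of liver peroxisomes, had 0.169, 0.122, 0.231 and 0.493 CPM in sham-vehicle mice. Its values were 0.296, 0.435, 0.256, 0.379 and 0.153 CPM in LPS-vehicle and 4.94, 4.19, 3.64 and 6.34 CPM in LPS-CPD-4645 mice, a ratio of 7.38. For both genes the sham-vehicle and LPS-vehicle values overlapped each other.

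Trim72 (chr7:128003949-128011033, plus strand) encodes MG53, a membrane repair protein of striated muscle. It had 0.65 to 1.91 CPM in sham-vehicle mice, 1.19 to 2.96 in LPS-vehicle mice and 14.3 to 17.5 in LPS-CPD-4645 mice, a ratio of 4.83. Gm15533 overlaps it on the other strand. Spdef (chr17:27714352-27728955, minus strand), an ETS transcription factor of secretory epithelia, had close values in the LPS-CPD-4645 mice, at 11.1, 11.3, 12.2 and 12.4 CPM. Its highest value elsewhere was 2.48 CPM, in LPS-vehicle mouse 2, a ratio of 4.46. Tex35, a testis-expressed gene, was at 1.2 to 1.95 CPM in LPS-CPD-4645 mice, and 3 of the 5 LPS-vehicle mice had no read of it. Cyp3a57, a cytochrome P450, varied widely among the LPS-CPD-4645 mice, at 3.51, 4.77, 2.49 and 8.14 CPM, against at most 0.646 elsewhere. Its reads and those of its near relatives in the Cyp3a cluster could have been divided in the counting, and its level is uncertain for that reason.

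Alpk3, a kinase-like protein of heart muscle, had 9.41 ± 1.74 CPM (SD, n = 4) in LPS-CPD-4645 against 1.53 ± 0.359 (n = 5) in LPS-vehicle and 0.894 ± 0.38 (n = 4) in sham-vehicle mice, and Platr32 overlaps it on the same strand. Asic3, an acid-sensing sodium channel of sensory neurons, had 4.1 ± 0.799 against 0.536 ± 0.126 and 0.749 ± 0.182 CPM in the same order. Rrh, the retinal pigment opsin peropsin, had 3.45 ± 0.633 against 0.69 ± 0.226 and 0.285 ± 0.167 CPM, and the predicted gene Gm2564 had 2.99 ± 1.52 against 0.198 ± 0.225 and 0.162 ± 0.146 CPM. These genes hold few reads in the controls, where 1 read was worth up to 0.128 CPM in the shallowest library. In 14 of the 112 genes all 9 other mice lay under 1 CPM. The smallest count in any LPS-CPD-4645 mouse was 15 reads.

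**Figure D2:**
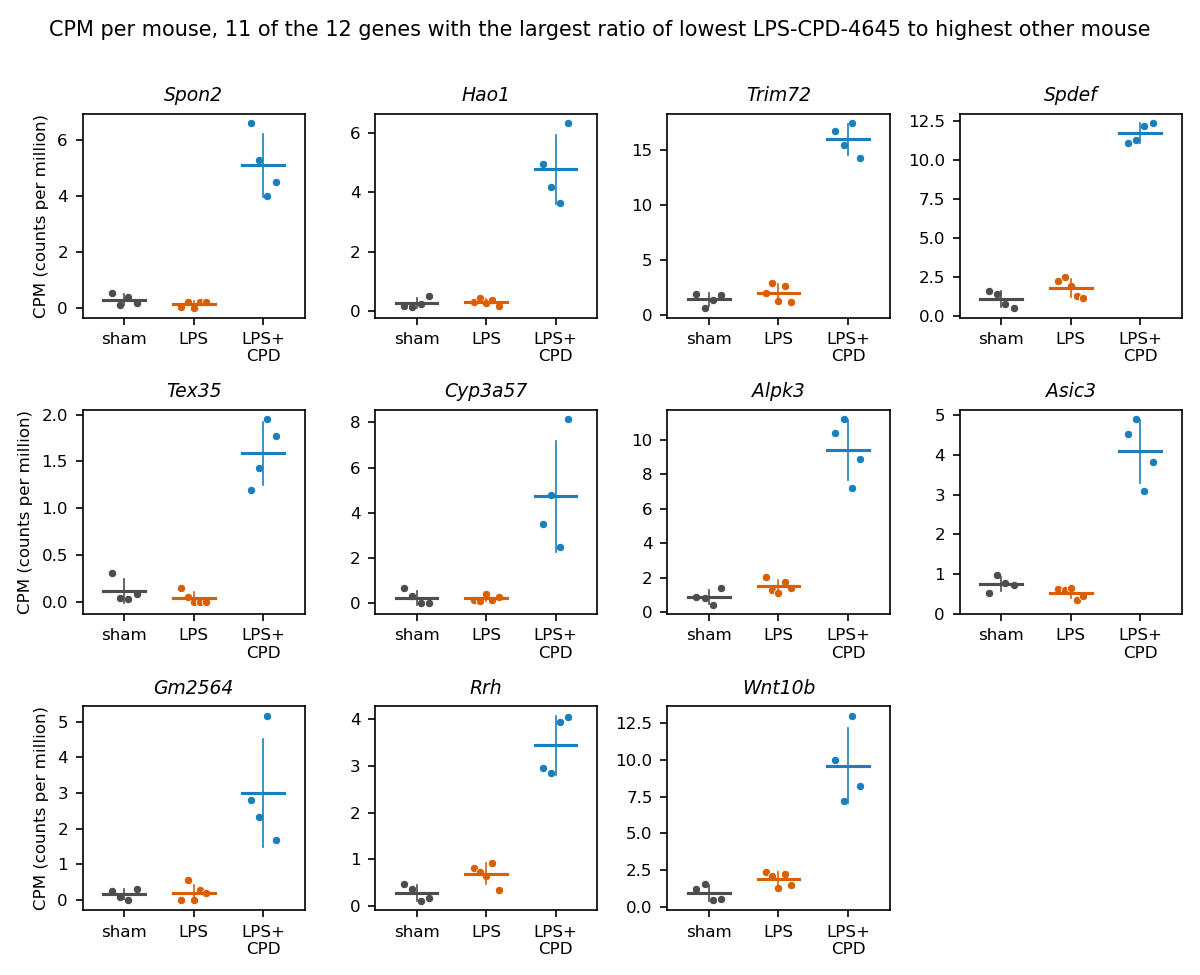
CPM per mouse (dots), group mean (bar) and SD (line) for 11 of the 12 genes with the largest ratio of the lowest LPS-CPD-4645 mouse to the highest other mouse. Each vertical axis has its own linear scale. The dots of the LPS-CPD-4645 group lie 3.03 to 7.53 times above the highest other dot, as the choice of these genes requires, and the sham-vehicle and LPS-vehicle dots overlap in all 11 panels.

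Clock genes lay at moderate to high levels. In the circadian clock, the activators Clock and Arntl drive Period and Cryptochrome genes through E-box sequences, and the Period and Cryptochrome proteins then repress their own transcription. Per1, a Period gene that glucocorticoids also induce, had 51.8, 47.8, 55.9 and 53.4 CPM in sham-vehicle mice. It reached 99, 102, 95.3, 83 and 86.5 CPM in LPS-vehicle mice and 200.3, 235, 247 and 215 CPM in LPS-CPD-4645 mice. The 3 groups did not overlap, and the mean in LPS-CPD-4645 mice was 2.41-fold that of LPS-vehicle and 4.29-fold that of sham-vehicle mice. Cry1, a Cryptochrome repressor, had 27.6, 22.4, 18.9 and 19.4 CPM in sham-vehicle mice, 21.8, 24.1, 26.5, 23.7 and 23.4 in LPS-vehicle mice, and 50.6, 50.7, 43.6 and 59.6 in LPS-CPD-4645 mice. Ciart, a repressor of the Clock and Arntl pair, had 12.8, 18.4, 13.5 and 11.7 CPM, then 16.3, 20.3, 13.7, 16 and 18.2 CPM, and 32.8, 43.2, 41.1 and 38.5 CPM in the same order of groups. For Cry1 and Ciart the sham-vehicle and LPS-vehicle mice overlapped, and the LPS-CPD-4645 means were 2.14-fold and 2.3-fold those of LPS-vehicle mice. C920021L13Rik overlaps Ciart on the other strand.

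The promoters of these 3 genes are shown because each holds the E-box CACGTG, which was found in 7.15% of all 32851 promoter windows of 300 bases and in 11.2% of the 98 windows of the set. The windows run from 250 bases before to 50 bases after the transcription start in RefSeq on GRCm38.p6, 5′ to 3′ on the gene's strand, with the E-box in capitals. The share was 9.6% in windows of coding genes above the floor. Per1 (chr11:69098699-69098998, plus strand) and Cry1 (chr10:85185005-85185304, minus strand) hold 1 E-box each, and Ciart (chr3:95882179-95882478, minus strand) holds 3, all upstream of the start. The match of letters is a description and shows no binding.
Per1: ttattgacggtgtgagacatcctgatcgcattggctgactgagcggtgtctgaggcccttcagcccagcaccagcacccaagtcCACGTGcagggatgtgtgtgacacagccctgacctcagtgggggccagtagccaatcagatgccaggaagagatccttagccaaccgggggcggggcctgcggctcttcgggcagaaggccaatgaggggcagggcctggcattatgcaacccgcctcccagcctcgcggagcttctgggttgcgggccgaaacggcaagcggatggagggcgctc
Cry1: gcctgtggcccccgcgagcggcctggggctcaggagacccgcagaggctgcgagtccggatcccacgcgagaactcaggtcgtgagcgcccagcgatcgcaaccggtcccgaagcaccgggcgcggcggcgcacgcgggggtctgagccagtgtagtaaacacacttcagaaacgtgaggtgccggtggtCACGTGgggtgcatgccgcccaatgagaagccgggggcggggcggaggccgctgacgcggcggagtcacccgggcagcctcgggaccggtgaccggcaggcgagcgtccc
Ciart: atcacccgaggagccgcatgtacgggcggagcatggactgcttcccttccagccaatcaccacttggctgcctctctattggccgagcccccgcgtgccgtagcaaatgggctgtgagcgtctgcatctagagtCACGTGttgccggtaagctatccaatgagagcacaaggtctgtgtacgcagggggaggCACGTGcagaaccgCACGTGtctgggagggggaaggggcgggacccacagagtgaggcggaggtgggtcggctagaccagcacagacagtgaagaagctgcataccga

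Genes of the cell cycle, of stress responses and of DNA repair made up 11 members: Cdkn1a, Trp53inp1, Depp1, Cdt1, Cdc25a, Ung, Tdg, Blm, Nbn, Mrnip and Hmgb2. Cdkn1a (chr17:29090976-29100727, plus strand) encodes p21, the cyclin-dependent kinase inhibitor through which p53 halts the cycle. It had 39, 25, 21.5 and 20.7 CPM in sham-vehicle mice, 115, 211, 143, 152 and 132 CPM in LPS-vehicle mice, and 282, 304, 319.8 and 284 CPM in LPS-CPD-4645 mice. The groups formed 3 separate levels, with a mean 1.97-fold that of LPS-vehicle and 11.2-fold that of sham-vehicle mice. AC167363.2 overlaps it on the other strand. Trp53inp1, a p53-induced regulator of autophagy and apoptosis, had 8.93 to 11.8, 13.2 to 24.1 and 33.6 to 43.5 CPM in sham-vehicle, LPS-vehicle and LPS-CPD-4645 mice.

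Cdt1, which licenses replication origins, had 12 ± 0.899 CPM in LPS-CPD-4645 against 5.81 ± 1.34 in LPS-vehicle and 4.48 ± 0.877 in sham-vehicle mice, and Gm20388 overlaps it on the same strand. Among genes of DNA repair, Nbn and Mrnip, named after their values were seen, had 19.8 ± 1.65 and 26.1 ± 1.12 CPM in LPS-CPD-4645 against 11 ± 2.38 and 15.6 ± 3.49 CPM in LPS-vehicle mice. Ung, the uracil glycosylase, had 7.77 ± 1.5 CPM, the helicase gene Blm 7.02 ± 1.04 CPM and Tdg, the thymine glycosylase, 4.38 ± 0.799 CPM in LPS-CPD-4645 mice, and in LPS-vehicle mice they had 3.84 ± 0.598, 3.68 ± 0.54 and 1.67 ± 0.59 CPM. Hmgb2, a chromatin protein of dividing cells, had 10.4, 11.8, 7.43 and 13.2 CPM in LPS-CPD-4645 mice and at most 5.28 elsewhere. Over the 11 genes the mean was 1.67-fold to 3.85-fold that of LPS-vehicle mice. Depp1, a FOXO target, had the largest of these folds, and was chosen for mention after its values were seen. On the other strand, Rassf4 overlaps Depp1, Glt8d2 overlaps Tdg, Ndufab1-ps overlaps Blm, Sqstm1 overlaps Mrnip and Gm11869 overlaps Nbn.

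Metabolic enzymes and transporters made up 14 members, with ratios of 1.3 to 7.38. Triglyceride handling was represented on both sides of the pathway. Pnpla2 (chr7:141455198-141460743, plus strand) encodes adipose triglyceride lipase, which starts the breakdown that monoacylglycerol lipase completes. It had 28.4, 25.4, 21.6 and 18.3 CPM in sham-vehicle mice, 69.8, 99.5, 72.4, 88.7 and 84.1 CPM in LPS-vehicle mice, and 172, 206, 213 and 152 CPM in LPS-CPD-4645 mice. No group overlapped another, and the LPS-CPD-4645 mean was 7.92-fold that of sham-vehicle mice. Dgat2, which catalyses the last step of triglyceride synthesis, had 129, 147, 191 and 144 CPM in LPS-CPD-4645 mice against 79.5 to 96.6 in LPS-vehicle and 73.9 to 88.3 in sham-vehicle mice. Mouse 3 was highest for both genes.

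Gnmt, the glycine N-methyltransferase of liver, had 13.1, 11.5, 9.61 and 12 CPM in LPS-CPD-4645 mice and 0.851 to 3.37 CPM in the other 9, and Gm26904 overlaps it on the other strand. Slc35b1, a nucleotide transporter of the endoplasmic reticulum, sat at the border of the rule with 121 ± 6.65 CPM against 80.7 ± 4.05 and 82.1 ± 4.62. Among genes named after their values were seen, Dio2, the deiodinase that makes active thyroid hormone in glia, had 61.9, 93.1, 91.3 and 87.8 CPM in LPS-CPD-4645 mice. It had 42.2, 22.5, 22, 20.4 and 15.7 CPM in LPS-vehicle mice, where mouse 1 alone stood above the rest, and 10.1 to 18.7 CPM in sham-vehicle mice. Gm26512 overlaps Dio2 on the other strand. Slc17a9, the vesicular nucleotide transporter, had 10.2 ± 1.85 CPM against 1.33 ± 0.771 and 0.577 ± 0.551. The other members of this group were Cers3, Accsl, Fut7, B3gnt6, Slc25a29 and the antizyme gene Oaz3, which is overlapped by Mrpl9 and Tdrkh.

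Secreted ligands, matrix proteins and secreted enzymes made up 11 members, with a median fold over LPS-vehicle mice of 4.65. The ligands Wnt3 and Wnt10b were among them, and they are given with the Wnt and Norrin receptor gene Fzd4, which vessels of the brain and retina need for barrier formation. Wnt10b had 10, 7.19, 13 and 8.21 CPM in LPS-CPD-4645 mice, 2.37, 2.14, 1.28, 2.28 and 1.47 CPM in LPS-vehicle mice, and 1.24, 1.58, 0.462 and 0.583 CPM in sham-vehicle mice. Wnt3 had 21.1, 26, 33.2 and 21.5 CPM, 9.34, 11.3, 8.83, 11.7 and 11.3 CPM, and 8.01, 8.45, 7.27 and 8.29 CPM. Fzd4 had 29.2, 32.6, 24.3 and 26.3 CPM, 13.2, 18, 11.1, 18.6 and 13.7 CPM, and 8.51, 8.7, 8.66 and 5.6 CPM. Mouse 3 was the highest LPS-CPD-4645 mouse for both ligands and the lowest for the receptor.

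Igfbp3, which binds insulin-like growth factors in serum, had 153, 168, 116 and 124 CPM in LPS-CPD-4645 mice, 48.4 to 77.9 in LPS-vehicle mice and 18.1 to 29.4 in sham-vehicle mice. Lox, the enzyme that crosslinks collagen and elastin, had 8.93, 14, 7.58 and 8.36 CPM against 5.38 to 5.69 and 0.691 to 2.19, so that its LPS-vehicle mice lay close together. AC161119.1 overlaps Lox on the other strand. Ccl17, a chemokine that attracts T cells through CCR4 and that was named after its values were seen, had 30.6, 46.2, 57.6 and 42.1 CPM against 7.23 to 11.4 and 3.32 to 8.45. The remaining secreted products were Zp2, Wfikkn1, Gdf5, Cym and Cpxm1, each under 20 CPM.

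Receptors, channels and other surface proteins made up 14 members. Plvap, the diaphragm protein of fenestrated and leaky vessels that mature barrier endothelium lacks, had 26.4, 40.4, 35 and 34.1 CPM in LPS-CPD-4645 mice. It had 16.2, 16.4, 16.8, 16.8 and 16.5 CPM in LPS-vehicle mice and 16.9, 6.46, 18.9 and 15.4 CPM in sham-vehicle mice, which overlapped. Clec14a, an endothelial lectin of vessel growth, had 11.3, 18.5, 18.4 and 11.2 CPM against 4.08 to 8.15 and 4.19 to 6.66. Tmprss6, the protease that restrains hepcidin in liver, stayed below 3 CPM throughout, at 1.67 to 2.68 CPM against 0 to 1.27 and 0 to 0.359. Besides Asic3, Rrh and Fzd4, the group held Tnfrsf4, Relt, Gucy2c, Klrg2, Upk1a, Lingo3 and Fam189a2. Gtpbp3 overlaps Plvap on the other strand.

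Kinases, GTPase regulators and other signalling proteins made up 11 members and included highly counted genes. Phactr3, a regulator of protein phosphatase 1 and actin, had 286, 305, 312 and 284 CPM in LPS-CPD-4645 mice, 122 to 196 in LPS-vehicle and 67.6 to 101 in sham-vehicle mice. Camkk1, a kinase that activates calmodulin-dependent kinases, had 187, 195, 209 and 179 CPM, 125 to 136 CPM and 81 to 107 CPM. Dyrk1a, a dual-specificity kinase of brain development, had 172, 156, 173 and 161 CPM, with LPS-vehicle (98 to 112) and sham-vehicle (101 to 113) mice overlapping. Arap3, which inactivates Arf6 and RhoA in endothelium, had 52.5, 41.6, 45.8 and 39.5 CPM against 19.2 to 25.2 and 7.53 to 14. Gab3, an adaptor of macrophage signalling, was at 1.09 to 1.76 CPM. Overlapping genes were Gm15971 for Dyrk1a, Mir6980 and Mir6981 for Arap3, all on the same strand, and Gm25629 and Gm15367 for Gab3. Alpk3, Rasd1, Acp1, Frmpd1, C2cd4b and Arrdc4 completed the group.

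**Figure D3:**
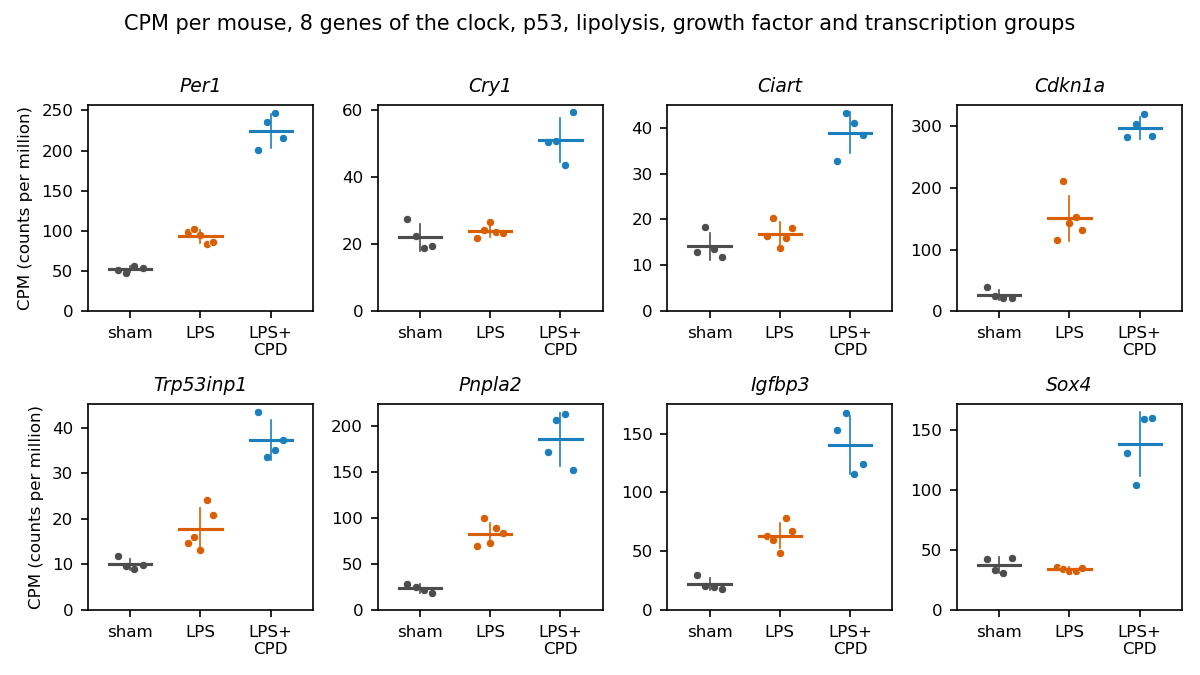
CPM per mouse (dots), group mean (bar) and SD (line) for 8 genes of the set, each panel with its own linear axis from 0. Per1, Cdkn1a, Trp53inp1, Pnpla2 and Igfbp3 form 3 separate levels, with sham-vehicle lowest, while in Cry1, Ciart and Sox4 the sham-vehicle and LPS-vehicle mice overlap.

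Transcription and chromatin genes also made up 11 members. Sox4, a SOX factor of progenitor cells named after its values were seen, had 131, 104, 159 and 160 CPM in LPS-CPD-4645 mice against 32.6 to 36.2 CPM in LPS-vehicle and 30.9 to 43.5 CPM in sham-vehicle mice, a ratio of 2.38, and Gm26735 overlaps it on the other strand. Aire, the autoimmune regulator of thymic epithelium, had 7.25, 9, 13.4 and 7.74 CPM against 3.56, 3.26, 4.35, 4.93 and 1.87 CPM and 0.787, 1.06, 0.269 and 0.134 CPM. Dnmt3l overlaps Aire on the other strand. H3f3b, 1 of the genes for histone H3.3, had 395 ± 14.5 CPM against 268 ± 11.8 and 244 ± 27.3. It has a close relative that encodes the same protein, so its count is uncertain. Spdef, Ascl2, Rlf, Tnrc18 and the zinc finger genes Zfp777, Zscan25, Zfp628 and Zfp956 were the others. Genes with such a zinc finger symbol made up 3.57% of the set and 2.46% of coding genes above the floor.

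RNA processing and translation genes, 12 in number, had means of 13.3 to 581 CPM in LPS-CPD-4645 mice, with a median of 55 CPM and ratios of 1.3 to 1.62. Srsf3, an SR splicing factor, had 208, 209, 184 and 225 CPM in LPS-CPD-4645 mice, 106 to 138 in LPS-vehicle and 114 to 133 in sham-vehicle mice. Rprd2 and Rbm12, the first a binder of the RNA polymerase II tail and the second an RNA-binding protein, had 74 ± 4 and 41.9 ± 1.32 CPM against 36.9 ± 5.12 and 21.5 ± 4.03 in LPS-vehicle mice. Rprd2 is overlapped by Gm26361, Gm17815 and Gm43436, and Rbm12 shares its strand with Cpne1 and Gm28036. Cnbp had 584, 568, 574 and 598 CPM against 351 to 418 and 352 to 437. Scaf8, Snrpd3, Smu1, Ddx27, Trmt6, Rbmx2, Eif1ad and Pdcd2l made up the rest. Scaling mattered here: with TMM-scaled totals 105 of the 112 genes still met the rule, and 4 of the 7 that no longer did (Cnbp, Ddx27, Snrpd3 and Srsf3) belong here.

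Per kilobase of exon, the level in LPS-CPD-4645 mice was highest for Cnbp, at 191 CPM per kb, followed by H3f3b at 133, Ccl17 at 85.9 and Cdkn1a at 83.6 CPM per kb. It was 71.4 CPM per kb for 1110004F10Rik, 61.5 for Pnpla2, 54.5 for Slc35b1, 51.9 for Psmd6 (named after its values were seen), 51.6 for Camkk1, 49.5 for Dgat2, 46.3 for Phactr3, 39.8 for Per1, 26.2 for Srsf3 and 20.1 for Dyrk1a. Timm29, part of the mitochondrial inner membrane import machinery, had 158, 153, 163 and 143 CPM in LPS-CPD-4645 mice, or 48.6 CPM per kb, against 81.3 to 95.4 CPM and 69.7 to 80.6 CPM in LPS-vehicle and sham-vehicle mice, and Yipf2 overlaps it on the other strand. With Maip1, Psmd6, Rnf115, Dcaf5 and Ctsk it formed a group of 6 genes of protein turnover and mitochondrial import. 1110004F10Rik, a little studied gene, had 178 ± 9.37 CPM against 114 ± 9.65 and 119.7 ± 6.35, and 1700003G18Rik and Gm4353 overlap it on the other strand.

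Genes of muscle, cilia and cytoskeleton made up 6 members. Cfap53, needed for motile cilia, had 1.51, 1.98, 2.53 and 2.91 CPM in LPS-CPD-4645 mice and at most 0.778 elsewhere. Cabyr, a calcium-binding protein of the sperm flagellum, had 5.31 ± 0.647 CPM against 2.02 ± 0.958 and 0.99 ± 0.579. On the other strand, Gm14328 overlaps Cfap53 and Gm7599 overlaps Cabyr. Trim72, Synpo2l, Smtnl2 and Poc5 were the others. The remaining 13 members had other roles or are little studied. Rsad2, the antiviral enzyme viperin, had 16.1, 30.7, 15.9 and 13.2 CPM in LPS-CPD-4645 mice against 5.63, 9.94, 4.99, 3.68 and 3.4 and 2.47, 0.406, 1.73 and 1.39 CPM, with mouse 2 the highest in both LPS-treated groups. Tulp1, a photoreceptor protein, had 1.58 to 2.08 CPM and was at 0 in 4 of 5 LPS-vehicle mice, which gave it the largest fold of the set, 59.5. The major vault protein gene Mvp, named after its values were seen, had 65.1 ± 4.14 CPM against 19.5 ± 4.83 and 9.88 ± 3.32, and Pagr1b overlaps it. Tex35, Gm2564, Fam24b, Armcx5, Ttc39c, 2810021J22Rik, AA986860, Gm29609, Gm45902 and 1110004F10Rik completed the set.

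LPS-vehicle was then compared with sham-vehicle, the contrast that shows how the same genes behaved under LPS alone. The rule's limit on the highest value over these 9 mice bears on both groups, and its part in the counts was not tested. All 112 genes were among the 17285 tested with edgeR's quasi-likelihood test, and 8 rose by at least 2-fold at an adjusted p of at most 0.05, which is 7.14% of the set against 4.68% of all genes tested. None fell past that threshold by edgeR, limma-voom or DESeq2, against 0.995% of all genes tested. With no limit on size, at the same adjusted p, 22 rose (19.6%, against 11.1% of all genes) and 2 fell (1.79%, against 8.86%). All 5 LPS-vehicle mice lay above all 4 sham-vehicle mice in 23 genes, where 13.2% of all genes tested did. The log2 fold change was above 0 in 78 of the 112 genes (69.6%, against 49.9% of all genes), with a median of 0.23 against -0.00. However, 11 of the 112 genes (9.82%, against 2.9% of all genes tested) passed the filter on low counts only with the LPS-CPD-4645 mice, in which the rule made them high, and they reached at most 1.41 CPM in any of the 9 mice compared here. These were Cers3, Cym, Cyp3a57, Fam24b, Gm2564, Hao1, Oaz3, Spon2, Tex35, Tulp1 and Zp2, and none of them was called. Over the 101 genes that passed the filter on the 9 mice alone, the counts of 8 and 22 rises and of 2 falls were the same, at 7.92%, 21.8% and 1.98% against 4.68%, 11.3% and 9.1% of the 16783 genes that passed it. Of these 101 genes 72 had a log2 fold change above 0 (71.3%, against 49.7%), and 4 lay lower with an unadjusted p below 0.05 by edgeR (3.96%, against 15.7%). In CPM from library totals, 88 genes had the higher mean in LPS-vehicle mice. On this scale the median of all tested genes was itself 0.10 (log2) higher in LPS-vehicle mice. The share of all genes with the higher mean was not counted, so the 88 have no background to be read against. In bulk fractions, fewer cells of a type and less RNA per cell cannot be told apart.

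The largest rise was that of Aire, at a log2 fold change of 2.53 (SE 0.40, edgeR adjusted p = 0.00019). Cdkn1a rose by 2.41 (SE 0.18, adjusted p = 5.5e-08), Tmprss6 by 2.24 (SE 0.67, adjusted p = 0.023) and Lox by 1.98 (SE 0.28, adjusted p = 5.3e-05). Rsad2 rose by 1.77 (SE 0.41, adjusted p = 0.0049), Pnpla2 by 1.73 (SE 0.13, adjusted p = 5.5e-08), Igfbp3 by 1.43 (SE 0.15, adjusted p = 1.8e-06) and Arap3 by 1.06 (SE 0.15, adjusted p = 5.1e-05). In 7 of these 8 genes every LPS-vehicle mouse exceeded every sham-vehicle mouse. The exception was Tmprss6, with no read in LPS-vehicle mouse 3, and its call was lost without sham-vehicle mouse 3 (log2 2.17). The rise of Arap3 was under 2-fold without sham-vehicle mouse 2 or 4 (log2 0.96 in each case). Without sham-vehicle mouse 1 the count was 13 in place of 8.

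Below 2-fold, Per1 rose by 0.73 (SE 0.09, adjusted p = 1.8e-05), Fzd4 by 0.84 (SE 0.16, adjusted p = 0.0013), Phactr3 by 0.78 (SE 0.12, adjusted p = 0.00018) and Trp53inp1 by 0.73 (SE 0.16, adjusted p = 0.0031). Camkk1 rose by 0.35 (SE 0.07, adjusted p = 0.0019), Hmgb2 by 0.86 (SE 0.29, adjusted p = 0.044) and Wnt10b by 0.91 (SE 0.31, adjusted p = 0.05). The 2 genes that fell, named after their values were seen, were the splicing genes Snrpd3 (log2 -0.28, SE 0.09, adjusted p = 0.032) and Scaf8 (log2 -0.28, SE 0.10, adjusted p = 0.048). By role, 5 of 11 signalling genes, 4 of 14 surface proteins, 3 of 11 secreted products, 3 of 11 cell cycle, stress and repair genes, 3 of 13 genes of other roles, 2 of 11 transcription genes, 1 of 3 clock genes and 1 of 14 metabolic genes rose, where 11.1% of all genes tested did. None of the 6 muscle and cilia, 6 protein turnover and 12 RNA processing genes rose, and the roles were not tested against each other. These role counts include the 11 genes that passed the filter only with the LPS-CPD-4645 mice, which lowers the shares of their roles. Among them Cers3, Cyp3a57, Hao1 and Oaz3 are metabolic, and Cym, Spon2 and Zp2 are secreted products. Fam24b, Gm2564, Tex35 and Tulp1 are of other roles. Of the 12 RNA processing genes, 1 had a log2 fold change above 0 in this fit, but 6 did in CPM from library totals, so the direction of that group depended on the scaling. The other 88 members passed the adjusted p in neither direction.

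**Figure D4:**
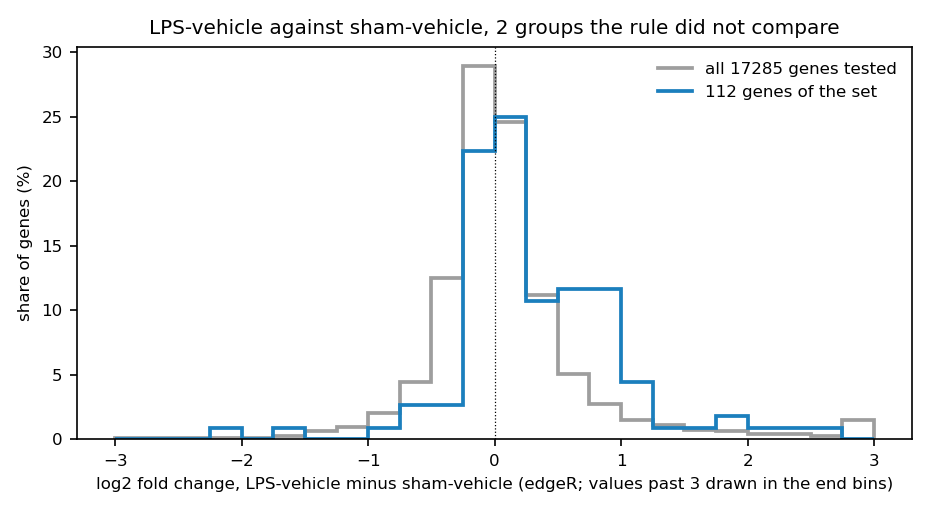
Share of genes (vertical axis, %) by log2 fold change of LPS-vehicle minus sham-vehicle (horizontal axis, bins of 0.25) for the 112 genes of the set (blue) and all 17285 genes tested (grey). The blue outline holds more of its genes above 0 (69.6% against 49.9%), with a median of 0.23. It includes the 11 genes that passed the filter on low counts only with the LPS-CPD-4645 mice.

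The motif of the interferon response was looked for beside Rsad2, the antiviral member that rose with LPS. Its promoter (chr12:26456403-26456702, minus strand, RefSeq on GRCm38.p6) is shown because it holds the core TTTCNNTTT once on each strand, in capitals. The core was present on either strand in 5.1% of the windows of the set, 10.6% of all windows and 7.7% of those of coding genes above the floor.
Rsad2: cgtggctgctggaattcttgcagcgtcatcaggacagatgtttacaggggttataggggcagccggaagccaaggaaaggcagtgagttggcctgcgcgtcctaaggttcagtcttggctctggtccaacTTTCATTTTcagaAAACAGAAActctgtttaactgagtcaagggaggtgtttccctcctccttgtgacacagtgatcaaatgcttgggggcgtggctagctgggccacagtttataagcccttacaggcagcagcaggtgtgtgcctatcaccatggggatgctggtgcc

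Lists of pathway genes placed the members beside the rest of their pathways in LPS-CPD-4645 against LPS-vehicle mice. Members were left out, since the rule used this contrast, and their removal takes away genes that would have counted as higher. The lists were written with earlier results of these samples in view and contain genes taken from those results, so their counts are no independent evidence, and the count without such genes is given where it differs. Over all lists, 74 of 396 tested non-members were higher (18.7%, against 14.1% of all genes tested) and 54 were lower (13.6%, against 16.4%) at an adjusted p of at most 0.05 by edgeR. Of the 351 that were not taken from earlier results, 36 were higher (10.3%) and 54 were lower (15.4%). Of the 45 that were taken, 38 were higher and 0 lower. Leaving them out therefore lowers the share of rises, here and wherever such genes are left out below. For that reason these shares cannot be set against those of all genes tested. In addition, 17 of the 396 passed the filter on low counts only with the LPS-CPD-4645 mice. Of these 9 were higher, all taken from earlier results, and since they were tested only through the group where they were high, those that are named are given by their levels, without a fold or a p.

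Among 18 clock genes outside the set, 4 rose and 1 fell. Cry2, the second Cryptochrome, rose by 0.66 (log2, SE 0.08, adjusted p = 2.5e-05), Arntl, the partner of Clock, by 0.60 (SE 0.10, adjusted p = 0.00028) and Nr1d1, its repressor, by 0.46 (SE 0.09, adjusted p = 0.00077). The Period gene Per3, named as the single fall after its values were seen, went the other way from Per1 (log2 -0.43, SE 0.10, adjusted p = 0.004). Of 17 other genes of the glucocorticoid response, which also holds Per1 and Cdkn1a, 9 rose and 2 fell, and 7 of the 15 that were not taken from earlier results rose. Map3k6, a stress-activated kinase, rose by 1.1 (SE 0.23, adjusted p = 0.0015) and Klf9, a glucocorticoid-induced repressor, by 1.07 (SE 0.21, adjusted p = 0.00096), both taken from earlier results, while the lipid droplet protein gene Plin4 fell by 0.93 (SE 0.28, adjusted p = 0.017). Without the members, the summed level of this list was 726 to 1141 CPM in sham-vehicle, 3534 to 4652 in LPS-vehicle and 5139.5 to 6634 in LPS-CPD-4645 mice. The metallothionein genes Mt1 and Mt2, named after their values were seen, made up most of the difference between the latter groups, with 198 to 563, 1814 to 3132 and 3601 to 4767 CPM together. The other 15 genes summed to 518 to 578, 1483 to 1765 and 1538 to 1867 CPM, so that without Mt1 and Mt2 the LPS-vehicle and LPS-CPD-4645 mice overlapped.

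Of 22 p53 target genes, 8 rose and 1 fell, and without genes taken from earlier results 7 of 20 rose. Gtse1, a p53-binding protein of dividing cells taken from earlier results, rose by 1.58 (SE 0.39, adjusted p = 0.0054), the apoptosis gene Pmaip1 by 0.93 (SE 0.15, adjusted p = 0.00022) and the stress protein gene Sesn2 by 0.76 (SE 0.18, adjusted p = 0.004). Of 29 genes of DNA replication and cell division, 11 rose and the other 18 did not pass, with 5 of 23 rising when genes taken from earlier results were left out. Rad18, a ubiquitin ligase of damaged replication forks, rose by 1.65 (SE 0.31, adjusted p = 0.00076). The centriole gene Stil (log2 1.59, SE 0.59, adjusted p = 0.048) and the kinetochore gene Ska3 (log2 1.5, SE 0.48, adjusted p = 0.025) rose from means of 0.671 and 1.06 CPM, and all 3 of these genes were taken from earlier results.

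Of 32 genes of fatty acid use and lipolysis outside the set, 2 rose and 10 fell, and the falls included that of Plin4. Ppargc1b, a coactivator of mitochondrial genes taken from earlier results, rose by 0.98 (SE 0.33, adjusted p = 0.029) from 1.17 to 2.1 CPM. Without genes taken from earlier results, 1 of 30 rose and 10 fell. Of 27 interferon response genes, 8 rose, but without genes taken from earlier results 1 of 19 did. Cxcl10 (log2 2.64, SE 0.67, adjusted p = 0.0066), Tgtp1 (log2 2.09, SE 0.61, adjusted p = 0.015) and Cxcl9 (log2 1.87, SE 0.42, adjusted p = 0.0031) had the largest changes, and all 3 were taken from earlier results. In the Wnt list, Fzd5 was the only 1 of 21 genes to rise (log2 1.34, SE 0.21, adjusted p = 0.00021), and it came from earlier results, so that none of the other 20 rose.

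Of 28 genes of endothelial growth, 1 rose and 3 fell, and without genes taken from earlier results none of 27 rose. Bmx, an endothelial and myeloid kinase taken from earlier results, rose by 1.67 (SE 0.34, adjusted p = 0.0014), while the receptor genes Tie1 (log2 -1.02, SE 0.23, adjusted p = 0.003) and Eng (log2 -0.67, SE 0.25, adjusted p = 0.047) fell. The RNA processing list held 5 rises and 4 falls among 24 genes (4 and 4 among 23 without the gene taken from earlier results), with the exosome nuclease Dis3, taken from earlier results, at 1.03 (SE 0.17, adjusted p = 0.0003), the splicing factor Tra2b at 0.65 (SE 0.12, adjusted p = 0.00058) and its relative Tra2a at -0.60 (SE 0.15, adjusted p = 0.0058). Of 10 genes of endocannabinoid enzymes and receptors, the system that CPD-4645 acts on, none is a member. The synthetic enzymes Napepld (log2 -0.53, SE 0.13, adjusted p = 0.0056) and Daglb (log2 -0.28, SE 0.10, adjusted p = 0.037) fell.

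**Figure D5:**
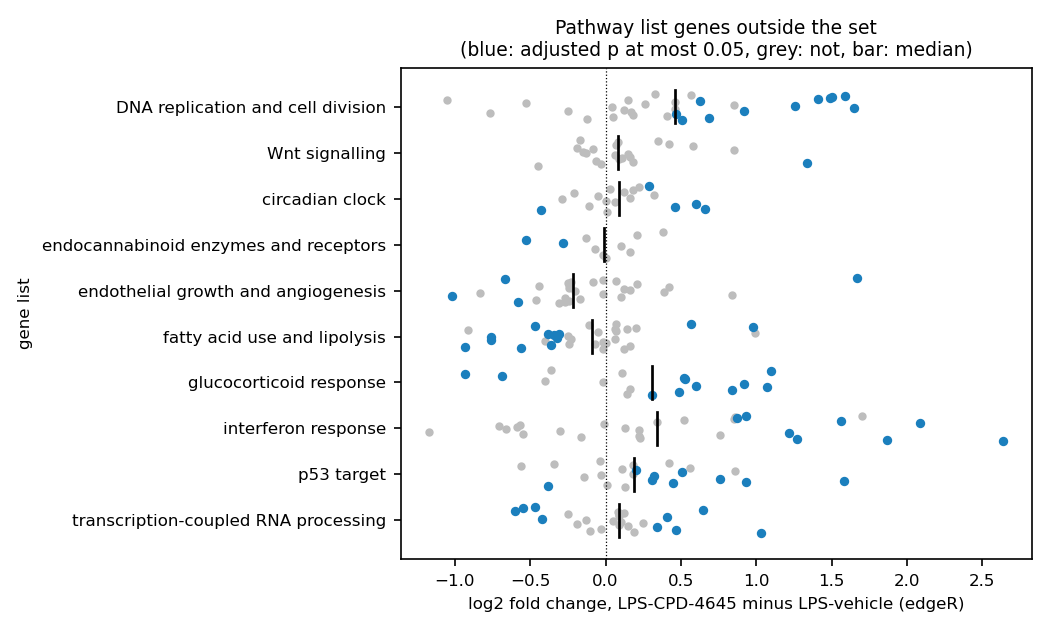
Log2 fold change of LPS-CPD-4645 minus LPS-vehicle (horizontal axis) for tested genes outside the set, by pathway list (vertical axis), with genes at an adjusted p of at most 0.05 in blue, others in grey and the list's median as a bar. All 11 blue dots of the DNA replication list and all 8 of the interferon list lie to the right of 0, which become 5 and 1 without genes taken from earlier results, and in the fatty acid list 10 of 12 lie to the left.

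Marker genes of other cell types were set beside the members that are best known from those cells, and their part in the members' levels was not tested. Where a list holds members, the rule makes its sum higher in LPS-CPD-4645 mice, so the sums without members are given. The 22 hepatocyte genes, which hold Hao1, Gnmt and Cyp3a57, summed to 6.23 to 11.7 CPM in sham-vehicle, 9.4 to 13.9 in LPS-vehicle and 27 to 41 in LPS-CPD-4645 mice, and without the members to 4.88 to 7.88, 7.18 to 11.1 and 11.3 to 15.9 CPM. In all LPS-CPD-4645 mice, 9 of the 22 genes stayed under 1 CPM. Of 11 tested non-members, 4 were higher, all taken from earlier results. Of these Igfals, Gys2 and Itih4 passed the filter only with the LPS-CPD-4645 mice, where their means were 1.29, 0.751 and 1.82 CPM, and they reached at most 0.14, 0.488 and 0.506 CPM in the other 9 mice. The other 7 did not pass, and 6 of them were not taken from earlier results. The testis germ cell list holds the members Tex35, Oaz3 and Cabyr. Its genes Prm1, Prm2, Tnp1, Tnp2, Akap4 and Pgk2, named after their values were seen, had no read in any of the 13 mice, and the list without its members summed to 2.69 to 3.82, 2.65 to 5.76 and 8.28 to 10.6 CPM. All 4 tested non-members of that list, among them Lyzl6, Tcam1 and Hsf5, were higher and taken from earlier results, which leaves none without such genes. Lyzl6 and Tcam1 passed the filter only with the LPS-CPD-4645 mice, with means of 0.689 and 0.948 CPM against 0.0653 and 0.202 CPM in LPS-vehicle mice.

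The 24 striated muscle genes with Trim72 summed to 71.4 to 81.1, 64.1 to 78.3 and 73.6 to 94.4 CPM without that member, in the same order, and these ranges overlap. Of 21 non-members 6 were higher, among them Tnnc2 (log2 2.09, SE 0.59, adjusted p = 0.012), which was taken from earlier results, and 1 of the 14 not taken from earlier results was. Trim63, a further 1 of the 6, passed the filter only with the LPS-CPD-4645 mice and had means of 0.486, 0.259 and 1.27 CPM. The photoreceptor list with Tulp1 summed to 8.51 to 11.7, 12.2 to 18.9 and 14.3 to 16.3 CPM without the member. There Pde6b and Fscn2 were higher among 8 non-members, and none of the 5 not taken from earlier results was. Both passed the filter only with the LPS-CPD-4645 mice, with means of 1.46 and 1.15 CPM against 0.0966 and 0.345 CPM in LPS-vehicle mice. The 8 ependymal genes with Cfap53 summed to 24 to 26.9, 15 to 24.7 and 9.72 to 16.6 CPM without the member, and Dnah11, Ccdc153 and Rsph1 fell. T and NK cell genes with Spon2 summed to 25.5 to 28.6, 35.6 to 87.2 and 35.1 to 56.6 CPM without the member. In that list, 17 of the 24 genes stayed under 1 CPM in all LPS-CPD-4645 mice. Of its 8 tested non-members Trbc2 fell and Crtam was higher. Crtam was taken from earlier results, and none of the other 7 rose. It passed the filter only with the LPS-CPD-4645 mice, with a mean of 4.1 CPM against 0.116 CPM in LPS-vehicle mice.

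Endothelial markers, beside Plvap, Clec14a, Arap3 and Igfbp3, summed to 435 to 768 CPM in sham-vehicle, 609 to 1240.2 in LPS-vehicle and 641 to 886 in LPS-CPD-4645 mice. Of these 14 genes 6 fell in LPS-CPD-4645 against LPS-vehicle mice and none rose. Tie1, the transporter gene Abcb1a (log2 -0.92, SE 0.22, adjusted p = 0.0039) and the junction gene Pecam1 (log2 -0.82, SE 0.19, adjusted p = 0.0034) had the largest falls. Of the blood cell lists, those of neutrophils and of monocytes and macrophages had their highest sums in LPS-vehicle mice, without overlap with the other groups. The erythrocyte list summed to 425 to 943 CPM in sham-vehicle, 245 to 468 in LPS-vehicle and 327 to 662 in LPS-CPD-4645 mice. All 4 of its tested genes were lower in LPS-vehicle than in sham-vehicle mice at an adjusted p of at most 0.05 by edgeR, where 8.86% of all genes were. The 12 neutrophil genes summed to 11.6 to 17.8, 81.5 to 306 and 13.6 to 36.4 CPM, and 10 of 11 tested fell, Cxcr2 (log2 -3.91), Ltf (log2 -3.35) and Mmp8 (log2 -3.18) most, while Padi4, taken from earlier results and named after its values were seen, rose. The monocyte and macrophage list summed to 67 to 114, 201 to 325 and 88.4 to 146 CPM, with 5 of 9 falling, Lyz2, Itgam and Adgre1 most. Microglia markers held 1 rise (Siglech, taken from earlier results) and 3 falls (Olfml3 and Aif1 among them) among 10.

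The remaining lists held no member. Of 12 neuronal genes 2 rose (Tubb3 and Rbfox3), of 10 oligodendrocyte genes 2 rose and 3 fell (Mobp and Sox10 among the falls), of 10 choroid plexus genes Ttr rose, of 10 fibroblast genes Slc22a6 fell, of 12 pericyte and smooth muscle genes Cspg4 fell, and of 4 platelet genes Gp1bb rose and Itga2b fell. The 10 astrocyte, 4 erythrocyte and 3 B cell genes tested did not pass in either direction.

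The genes of the set were shorter than other coding genes above the floor. The longest annotated transcript had a median of 2728 bases (quartiles 2079 and 4046), against 3509 (2316 and 4961) over the 13129 genes. The genomic span had a median of 13.8 kb against 25.5 kb, and the number of exon blocks 8 against 10, while the GC content of the transcript was 51.7% against 50%. In GENCODE M21, 45.5% of the set overlapped another gene on either strand, against 55.2% of the coding genes above the floor. Members lay on 19 autosomes and the X chromosome, with 18 on chromosome 7, or 1.82% of its coding genes above the floor. Only 2 pairs lay within 50 kb of each other: Srsf3 and Cdkn1a, 47.6 kb apart on the plus strand of chromosome 17, and Ttc39c and Cabyr, 1.46 kb apart on the plus strand of chromosome 18.

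RefSeq promoter windows were found for 86 of the 112 genes, 98 windows in all, and 12 motifs were searched on both strands. Beside the E-box, the CCAAT box (CCAAT) was in 43.9% of the windows of the set against 37.4% of all windows and 36.9% of those of coding genes above the floor, and the core of the antioxidant response element (TGACNNNGC) in 20.4% against 12.4% and 14.1%. The same pair of backgrounds, all windows and then coding genes above the floor, is given for the other motifs. The glucocorticoid receptor half-site (AGAACA) was in 16.3% against 19% and 12.2%, the nuclear receptor half-site (AGGTCA) in 15.3% against 16.3% and 12.1%, the TATA box (TATAAA) in 12.2% against 13.6% and 7.23%, and the STAT site (TTCNNNGAA) in 7.14% against 8.3% and 6.66%. These 4 shares lay below that of all windows and above that of coding genes above the floor. The D-box (TTATGTAA) was in 3.06%, which are 3 overlapping windows of Tex35, against 0.938% and 0.547%, and the cAMP response element (TGACGTCA) in 2.04% against 1.79% and 2.93%. The E2F site (TTCGCGC, 1.59% and 2.87%) and the serum response element core (CCATATTAG, 0.103% and 0.0675%) were in no window of the set. These shares were not tested.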

How the data were processed

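Poly(A) RNA of isolated brain vasculature from 13 male CD1 mice was sequenced after TruSeq Stranded mRNA library preparation, 1 library per mouse. Per the labels and the study's methods, the authors used bcl2fastq 2.15.0.4 and STAR 2.5.2a with the mm10 build and GENCODE M9, and deposited whole-number read counts per gene without normalization. The strand column used for counting is not given in the sources used here, so genes that overlap on opposite strands may not be separated. Groups and replicate numbers came from the sample titles.

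Gene symbols, types and overlaps came from GENCODE M21 on GRCm38, where 47224 of 47643 identifiers matched. CPM was the count over the library total, and depth was 7813559 to 55133373 counts per library, which limits low genes in the shallow libraries. Counts were tested with edgeR 4.0.16 (R 4.3.3; TMM, filterByExpr at 10 reads per gene and 15 in all, quasi-likelihood F-test, Benjamini-Hochberg adjustment over 17285 genes) in 1 fit of all 13 mice. Which genes passed the filter on the 9 mice without CPD-4645 was also determined. The thresholds were an adjusted p of at most 0.05, with or without a 2-fold change, and the test was checked on simulated data. Limma-voom (limma 3.58.1), DESeq2 1.42.0, other scalings and filters, a replicate block and leaving out each mouse were alternatives. Promoter sequences came from RefSeq.

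Members, roles and lists were chosen with earlier results of these data known. Genes named were the 12 with the largest ratios, the 12 with the highest mean CPM under CPD-4645, members on a list, the 5 largest rises and falls past the threshold in LPS-vehicle against sham-vehicle (the other 3 of the 8 rises are on a list), the 5 on each side of the rule's limit, and up to 3 tested genes of each list. Genes named outside this rule are marked as chosen after their values were seen, except where a list of members only names them. P-values measure the spread between mice, 1 library each. Intervals for counting error were not needed because each group had replicates. A few genes that met these rules are not reported here.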

Additional observations from a re-analysis of the deposited data

Results flagged for a closer look

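Among the 153 groups of values of the 51 genes named by rule (51 genes in 3 groups of mice), 8 held a mouse whose gap to the nearest of the others was past Dixon's 95% critical value, and chance flags about 1 in 20 groups. Rsad2 had 30.7 CPM in LPS-CPD-4645 mouse 2, where the others had 13.2 to 16.1. Tulp1 had 2.08 CPM in LPS-CPD-4645 mouse 2 against 1.58 to 1.65, and 0.145 CPM in LPS-vehicle mouse 2 where the other 4 mice had 0. Tmprss6 had 2.68 CPM in LPS-CPD-4645 mouse 3 against 1.67 to 1.81. Oaz3 had 1.41 CPM in LPS-vehicle mouse 3, the shallowest library, against 0.292 to 0.363. Srsf3 had 138 CPM in LPS-vehicle mouse 3 against 106 to 115, and 114 CPM in sham-vehicle mouse 2 against 131 to 133. Fzd4 had 5.6 CPM in sham-vehicle mouse 4 against 8.51 to 8.7. These differences between mice were not tested further.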

How the results depend on the processing

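The number of genes that met the rule was 112. It was 412 with a ratio of 1.1, 215 with 1.2, 45 with 1.5 and 22 with 2, by the construction of the rule. It was 152 with TMM-scaled totals and 163 with DESeq2 size factors (105 of the 112 kept under each), and 108 without mitochondrial counts (102 kept). Leaving out each mouse in turn, which by the construction of the rule can only keep or add genes, gave 112 to 173 (173 without LPS-CPD-4645 mouse 4), and it was 173 without the 2 shallowest libraries (a setting added after seeing the data). The 8 members past the threshold in LPS-vehicle against sham-vehicle became 7 to 13 with each mouse left out and 9 without the 2 shallowest libraries, and 20 of 21 alternatives stayed within 1.5 times. The 128 list genes outside the set that passed in LPS-CPD-4645 against LPS-vehicle became 97 to 141. Tmprss6 no longer passed with the replicate block (2.14) or in a fit of the 2 groups compared only (2.24). Of 167 alternatives for single members, 162 kept the call, and of 1302 for list genes 1172 did, 130 lost it and none reversed. Replicate numbers did not pair the mice (correlation of same-numbered deviations -0.0346 to 0.114 over 12 pairs). With the replicate block, the members past the threshold were again 8 (7 shared) and the list genes 124. Low counts in the 2 shallowest libraries limit genes under 1 CPM.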

Other observations

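The same rule without the limit to protein-coding genes gave 134 genes. The other 22 were 7 antisense RNAs, 4 lincRNAs, 4 genes of the unclassified type TEC, 3 processed pseudogenes, 2 transcribed pseudogenes, 1 miRNA gene and 1 ribozyme gene. Many share sequence or position with a coding gene, and the counts cannot be assigned to them with certainty. The largest ratios were 5.01 for Rpl13-ps1, which overlaps Usp32, 3.15 for Gm12630, which overlaps Dennd4c on the other strand, and 2.89 for Rpph1, the RNA subunit of RNase P, which overlaps Ccnb1ip1 on the same strand. Rpph1 had mean CPM of 0.198, 0.753 and 3.6 in sham-vehicle, LPS-vehicle and LPS-CPD-4645 mice.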
